A study of Bos taurus with 2 samples.

Results

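A set of 10 genes of the extracellular matrix was followed through cultured bovine satellite cells, namely the adhesive and matricellular genes FN1, TNC, SPARC, POSTN, THBS1 and THBS2 and the elastic fibre genes ELN, FBN1, FBLN1 and FBLN5. They were chosen by symbol, and all 10 were found among the 21867 genes of the feature list, each under 1 Ensembl identifier: FN1 (ENSBTAG00000008300), TNC (ENSBTAG00000000575), SPARC (ENSBTAG00000014835), POSTN (ENSBTAG00000012409), THBS1 (ENSBTAG00000002006), THBS2 (ENSBTAG00000018810), ELN (ENSBTAG00000019517), FBN1 (ENSBTAG00000002278), FBLN1 (ENSBTAG00000012088) and FBLN5 (ENSBTAG00000018123). The most uneven of them was THBS2, whose transcripts lay to 65.3% in cluster 9, a cluster of 1080 cells. Such a share grows with the number of transcripts captured per cell, which was highest in cluster 9. As a part of all transcripts of a cluster, THBS2 was 1.76-fold higher in cluster 7 than in cluster 9. With ribosomal protein genes left out it was 1.46-fold higher, and the test of cluster 9 against cluster 7 did not call THBS2. FN1, TNC and FBN1 were high together and low together across clusters and were lowest in cluster 12, the cluster with the highest MYOG and MYH3. ELN did not follow them and was lowest in cluster 9.

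The cells came from the skeletal muscle of 1 male Holstein calf aged 2 weeks, and were cultured for 1 week in Dulbecco's modified Eagle medium with 10% fetal bovine serum, without any treatment or second group. From this single culture 2 libraries were made on the 10x Genomics 3′ platform, which tags each captured RNA with a unique molecular identifier (UMI), and are called replicates 1 and 2. They held 9939 and 9157 cells with 145631299 and 137818568 UMIs, and 27 cell barcodes occurred in both. Because the libraries share calf and culture, the spread between them is technical, and p-values below measure only that spread. The comparisons are between the 15 clusters that the authors made, into which every one of the 19096 cells was placed exactly from the deposited cluster averages.

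Fibronectin, the product of FN1, is an adhesive glycoprotein that cells bind through integrins and assemble into fibrils. Matricellular proteins such as SPARC, periostin, the thrombospondins and tenascin-C are secreted into the matrix, where they tune adhesion, growth factor signals and matrix assembly more than they bear load. Elastic fibres have a core of crosslinked elastin on a scaffold of fibrillin microfibrils, and fibulins help to join the parts. In skeletal muscle these proteins surround fibres and satellite cells, and much of the interstitial matrix is made by fibroblasts and fibro-adipogenic progenitors, the PDGFRA positive cells that can become fibroblasts or adipocytes.

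The study names clusters 4, 5 and 8 as satellite cells, clusters 1 and 2 as myoblasts, clusters 3 and 12 as myocytes and clusters 7 and 9 as fibro-adipogenic progenitors, and leaves the other 6 clusters without identity. These names were checked against markers as levels, that is UMIs of a gene per 10000 UMIs of a cluster, averaged over both libraries. PDGFRA was at 1.48 in cluster 7 and 1.58 in cluster 9, and between 0.0919 and 0.502 in the other clusters. PPARG (0.288) and ZNF423 (0.125), which act in the adipogenic lineage, were also highest in cluster 9. The other fibro-adipogenic markers, the proteoglycan genes DCN and LUM, were not: both were highest in cluster 8, at 15 and 5.66, against 9.25 and 2.93 in cluster 9. Summed, these 5 markers were at 21.0 in cluster 8, 15.3 in cluster 7, 14.6 in cluster 5, 14.2 in clusters 4 and 9 and 3.36 to 10.9 in the rest. The sum thus goes against the name of cluster 9, where PDGFRA, PPARG and ZNF423 do not. DCN and LUM make up most of the sum in clusters 8 and 9, and the study did not use them for its names. For cluster 9 it also drew on gene ontology terms of lipogenesis and on the absence of LEP and ADIPOQ. The 3 fibroblast markers summed to 576 in cluster 7, 244 in cluster 8 and 69.5 in cluster 9, with 59.2 to 154 elsewhere. The myoblast markers MYF5, MYOD1 and DES summed to 11.4 to 26.8 in clusters 1, 2, 3 and 12. They summed to only 3.43, 4.38 and 5.06 in clusters 8, 5 and 4, and to 1.59 in cluster 9. In clusters 6, 10 and 13, which the study leaves without identity, their sums were 10.6, 11 and 13.9. MYOG, the regulator of myoblast differentiation, was at 6.68 in cluster 3 and 18.6 in cluster 12. Cluster 7 also held DES (5.54), MYOG (1.75) and MYH3 (4.74), which were at 0.890, 0.260 and 0.125 in cluster 9, so cluster 7 is called by its number throughout. PAX7 had at most 39 UMIs in any cluster, and PAX3 and PAX7 together, the markers of satellite cells, reached 0.0382 at most, in cluster 8. Median UMIs per cell were 647 to 5398.5 in clusters 7, 10, 13, 14 and 15 and 12929 to 23011 in the other 10. Ribosomal protein genes took 904 of 10000 UMIs in cluster 7 and 2231 to 3098 elsewhere, so every other gene weighs more in a level of cluster 7.

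FN1 was at 16.8 and 17.5 UMIs per 10000 in the libraries of cluster 7, at 6.34 and 6.72 in cluster 9 and at 4.56 and 4.7 in cluster 8. It was lowest in cluster 12, at 0.678 and 0.706, and next lowest in cluster 3, at 0.9 and 0.958. In the order of FN1 over the 15 clusters, the library values of only 2 of the 14 pairs of neighbouring clusters overlapped. With 2 libraries this is a weak guide, and clusters 13, 14 and 15 held only 306, 170 and 38 FN1 UMIs. The places of these clusters in the order are therefore not settled. TNC, whose product tenascin-C loosens cell adhesion and is made during repair, followed the same order at both ends, with 26.7 and 26.5 in cluster 7 at the top and 1.00 and 1.11 in cluster 12 at the bottom. TNC was at 6.28 and 6.61 in cluster 9 and at 6.44 and 5.93 in cluster 8. These overlapped, so clusters 9 and 8 could not be set apart for TNC.

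SPARC, a collagen-binding protein, had the narrowest range, 2.75-fold between its highest and lowest cluster, and a UMI in 99.1% of all cells. It was at 51.2 and 76.1 UMIs per 10000 in cluster 7, at 54.0 and 53.8 in cluster 8 and at 46.7 and 46.6 in cluster 1. Its lowest levels were 23.8 and 25.2 in cluster 9 and 22.5 and 23.9 in cluster 14. The libraries of cluster 7 were thus farther apart than those of clusters 8 and 1, and enclosed both libraries of cluster 8. With ribosomal protein genes left out of the totals, mean SPARC was higher in cluster 8 (73.3) than in cluster 7 (70).

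POSTN encodes periostin, which promotes collagen crosslinking, and had a UMI in 16.5% of all cells, against 7.44% for THBS2 and 9.1% for FBLN1. Its level was 0.558 and 1.39 in the libraries of cluster 7, 0.625 and 0.814 in cluster 9, and at a mean of 0.186 or less in 12 of the other 13 clusters. The exception was cluster 14, with 9 UMIs in replicate 1 and 40 in replicate 2, of which 81.6% lay in 20 of its 446 cells. In cluster 7 the 20 cells with the most POSTN held 47.9% of its 219 UMIs, with a maximum of 4 UMIs in a cell of replicate 1 and 16 in one of replicate 2.

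The 2 thrombospondin genes had unlike orders. THBS1, whose product activates TGF-beta and binds CD36 and CD47, was at 24.3 and 22.0 UMIs per 10000 in cluster 7, and next highest in cluster 13 (9.50), cluster 3 (9.25), cluster 10 (8.45) and cluster 12 (8.29). It was low in clusters 4, 5, 8 and 11, at 2.47 to 2.82, and lowest in cluster 14, at 2.31. THBS2, whose product clears matrix metalloproteinase 2, was at 1.07 and 1.29 in cluster 7 and at 0.654 and 0.691 in cluster 9. The next cluster, cluster 10, had a mean THBS2 level of 0.152, and 8 clusters were under 0.03, down to 0.00951 and 0.00974 in cluster 3. THBS2 therefore spanned 123-fold between clusters, the widest range of the 10 genes, and THBS1 10.0-fold.

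FBN1, which encodes the fibrillin of the microfibril scaffold, was at 27.4 and 24.7 UMIs per 10000 in cluster 7, 8.17 and 7.73 in cluster 8, 4.94 and 5.06 in cluster 9 and 1.25 and 1.33 in cluster 12. ELN, the gene of elastin itself, was at 1.15 and 1.00 in cluster 7 and at a mean of 1.12 in cluster 13, and the libraries of those 2 clusters overlapped. ELN was lowest in cluster 9, at 0.168 and 0.205, with 0.261 or more as the mean of every other cluster. FBLN5, whose product carries elastin to microfibrils, was at 1.19 and 1.60 in cluster 7 and 1.29 and 1.25 in cluster 9, which overlapped, and at a mean of 0.718 or less elsewhere. FBLN1, whose product binds fibronectin and elastic fibres, was sparse, with 1988 UMIs in all cells, and the library values of 13 of its 14 pairs of neighbouring clusters overlapped. It was at 0.145 and 0.263 in cluster 7, 0.0949 and 0.0999 in cluster 1 and 0.0244 and 0.0288 in cluster 12.

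**Figure D1:**
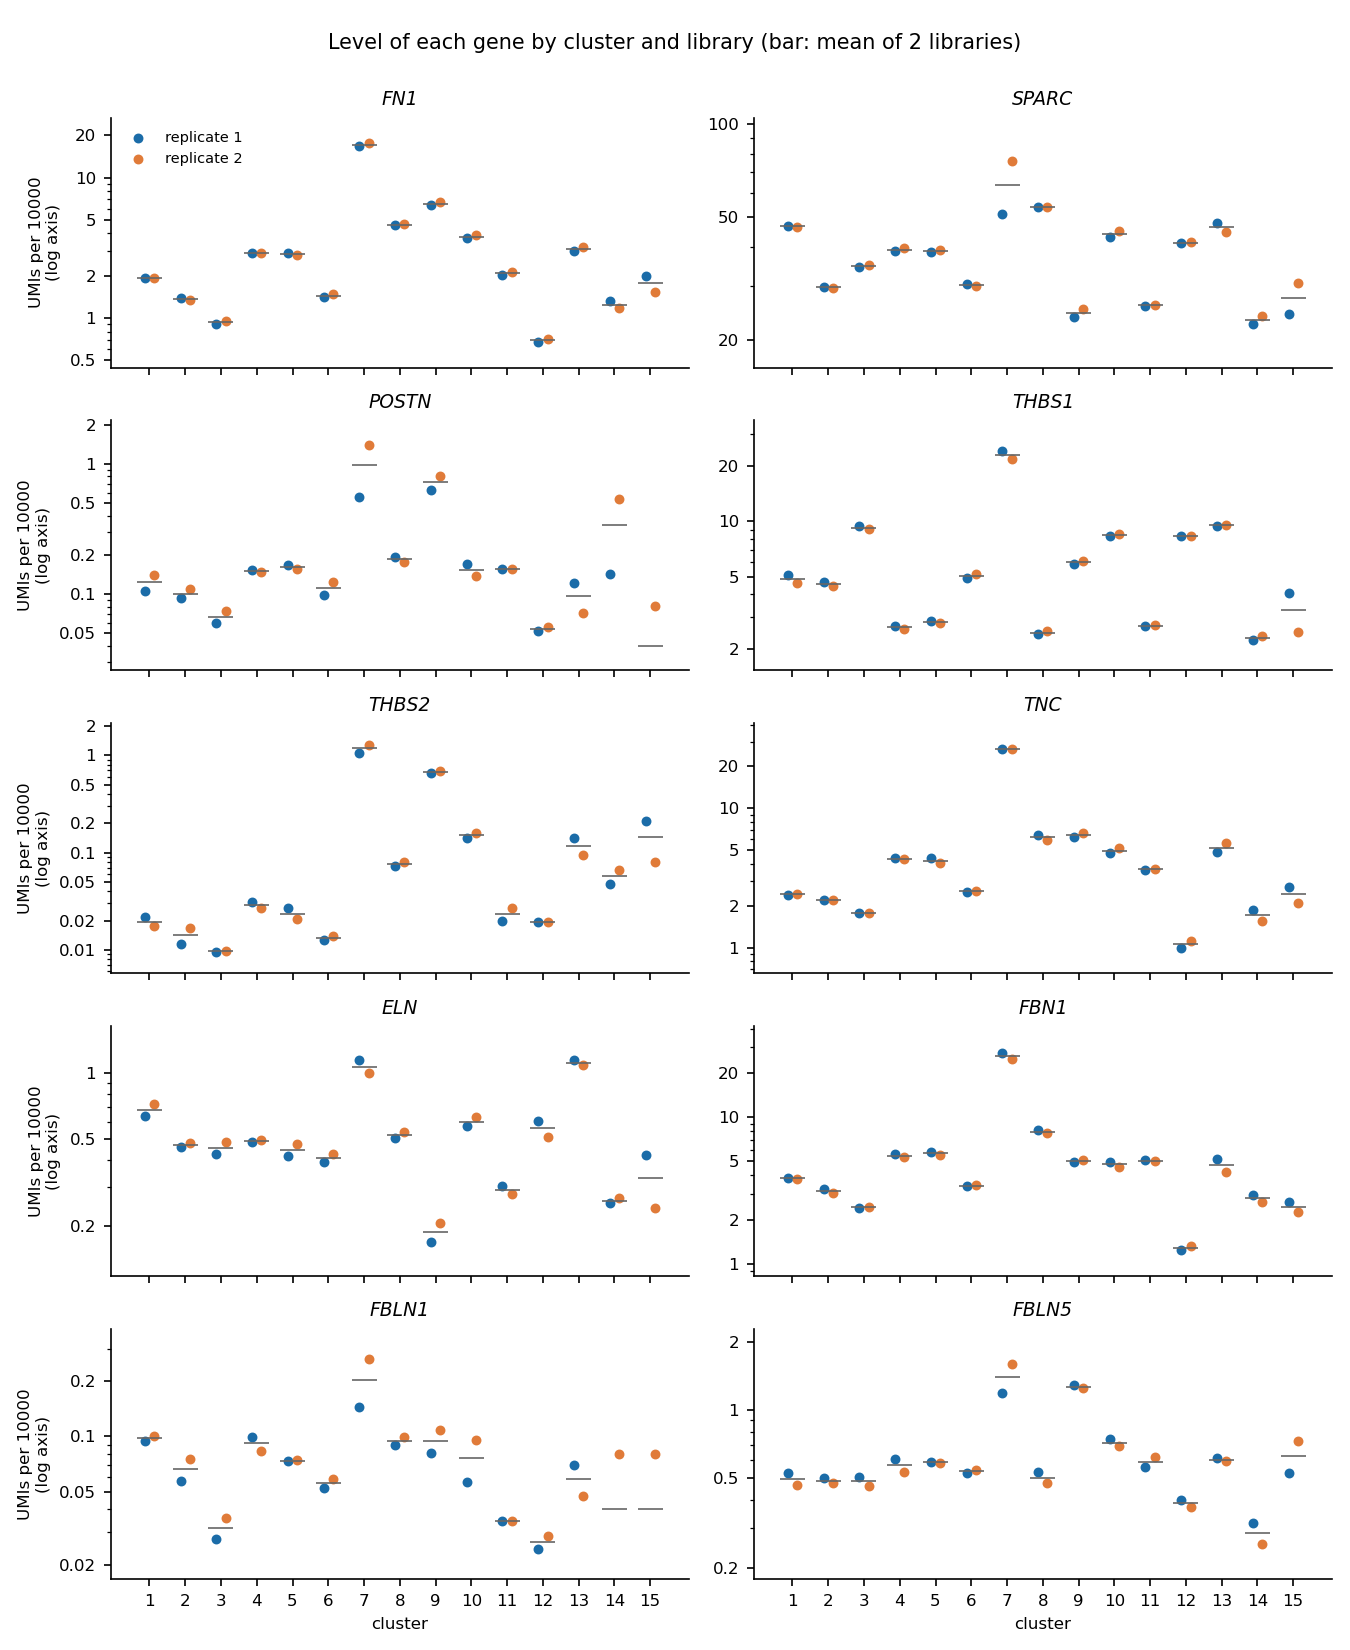
Level of each of the 10 genes in each cluster, in UMIs per 10000 UMIs of the cluster on a log axis of its own per gene, with 1 point per library and a bar at the mean of both; libraries at 0 (POSTN in cluster 15 and FBLN1 in clusters 14 and 15, all in replicate 1) have no point. All genes but ELN have their highest mean in cluster 7, ELN is as high in cluster 13, and POSTN and THBS2 stand out only in clusters 7 and 9, with the libraries of POSTN far apart in clusters 7 and 14.

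Each cluster was then set against all other cells, as 2 library sums against 2, with edgeR's quasi-likelihood test and Benjamini-Hochberg adjustment over all genes tested, with calls made where the adjusted p was under 0.05. Clusters had been made from the same counts, so these calls, and those of the comparisons between clusters further below, are no independent evidence. Of the 150 pairs of gene and cluster, 49 were called higher and 55 lower. Among all genes tested, the share called higher was smallest for cluster 15 (0.039%) and largest for cluster 9 (25.3%). The share called lower was smallest for cluster 15 (0.234%) and largest for cluster 12 (29.5%). In cluster 7, 9 of the 10 genes were called higher and none lower, where 18.3% of the 13036 genes tested were called higher and 26.4% lower. Of the 10, SPARC was not called (log2 fold change 0.18 ± 0.19 SE, edgeR adjusted p = 0.497), but was with the library as a block (0.14, adjusted p = 0.0323) or with library size in place of TMM scaling (0.82, adjusted p = 0.0151). Using library size in place of TMM moved the median of all genes in cluster 7 from -0.12 to 0.53 and the split of all calls from 2382 higher and 3443 lower to 4768 and 1625. ELN in cluster 7 (0.56 ± 0.10) was at -0.004 without cells under 2000 UMIs, which left 308 of its 1298 cells. In cluster 9, 8 were called higher beside 25.3% of all genes, and ELN and SPARC lower beside 27.7%. The values of THBS1 (0.20 ± 0.05) and FBN1 (0.18 ± 0.05) in cluster 9 became -0.09 and -0.17 when the other clusters were weighted equally. Cluster 8 had 6 called higher beside 22.5%, among them FBN1 (0.99 ± 0.05) and FN1 (0.96 ± 0.04), and 2 lower beside 23.5%, THBS1 (-1.06 ± 0.04) and THBS2 (-0.30 ± 0.10). THBS2 in cluster 8 was no longer called with DESeq2 or without cells under 2000 UMIs, was 0.02 when cells were assigned by likelihood, and was -1.11 when the other clusters were weighted equally.

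At the other end, cluster 12 had 7 of the genes called lower, beside 29.5% of all genes, and THBS1 (0.90 ± 0.05), ELN (0.45 ± 0.09) and SPARC (0.38 ± 0.04) higher, beside 24.8%. Cluster 3 had 7 called lower beside 25.4%, and THBS1 alone higher (1.15 ± 0.05) beside 24.5%. Cluster 2 had 8 called lower beside 16.8%, and none higher beside 15%. Cluster 14, whose median cell had 2513.5 UMIs, had 7 called lower beside 4.07% and none higher beside 3.73%. In cluster 13 ELN led the 4 called higher, beside 5.98%, at 1.17 ± 0.12, and none was called lower beside 11.3%. Cluster 1 had 3 called higher (SPARC, ELN and FBLN1) beside 14.6% and 5 lower beside 18.8%. Clusters 4 and 5 each had 4 called higher and 2, THBS1 and THBS2, lower; beside these, 16.3% and 15.3% of all genes were called in cluster 4 and 12% each way in cluster 5. FN1 and TNC were among the 4 called higher in clusters 4 and 5, and both changed sign there when the other clusters were weighted equally. FBN1 and SPARC, the other 2, were called in 8 and 7 of 9 settings in each of these clusters. The lowest log2 fold change of FBN1 over settings was 0.01 in cluster 4 and 0.1 in cluster 5. Clusters 6, 10, 11 and 15 have no identity in the study. Cluster 6 had 0 higher beside 10.6% and 6 lower beside 9.48%, cluster 10 had 6 higher beside 16.7% and 0 lower beside 21.9%, and cluster 11 had FBN1 higher beside 12.8% and 6 lower beside 13.7%. In cluster 15, the shallowest, FBN1 alone was called lower beside 0.234%, and none of the 10 higher beside 0.039%. With equal weights THBS2 and TNC in cluster 10 and FBN1 in cluster 11 also changed sign. Where edgeR called none of the 10 genes in a direction, none passed an unadjusted p under 0.05 either, except POSTN, which did as lower in clusters 10 and 13 and as higher in cluster 14, and DESeq2 called none in those directions. POSTN in cluster 14 (1.04 ± 0.42, edgeR adjusted p = 0.215) was called with the library as a block (1.03, adjusted p = 0.000649). The block also called as lower POSTN in clusters 4 (-0.33), 10 (-0.40) and 11 (-0.31), FBLN5 in clusters 1 (-0.23), 6 (-0.14) and 8 (-0.22), THBS1 in cluster 1 (-0.02), ELN and FBLN1 in cluster 6 (-0.18 and -0.34) and FN1, SPARC, THBS1 and TNC in cluster 15 (-0.80, -0.62, -0.91 and -0.82), and as higher FBLN1 in cluster 4 (0.45).

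By gene, SPARC and TNC were called higher in 7 clusters each, and THBS2 was called higher in 3 (7, 9 and 10) and lower in 9. Of the higher calls, TNC in clusters 4, 5, 10 and 13 and THBS2 in cluster 10 changed sign when the other clusters were weighted equally. The shares of all genes called in each cluster are those given above.

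**Figure D2:**
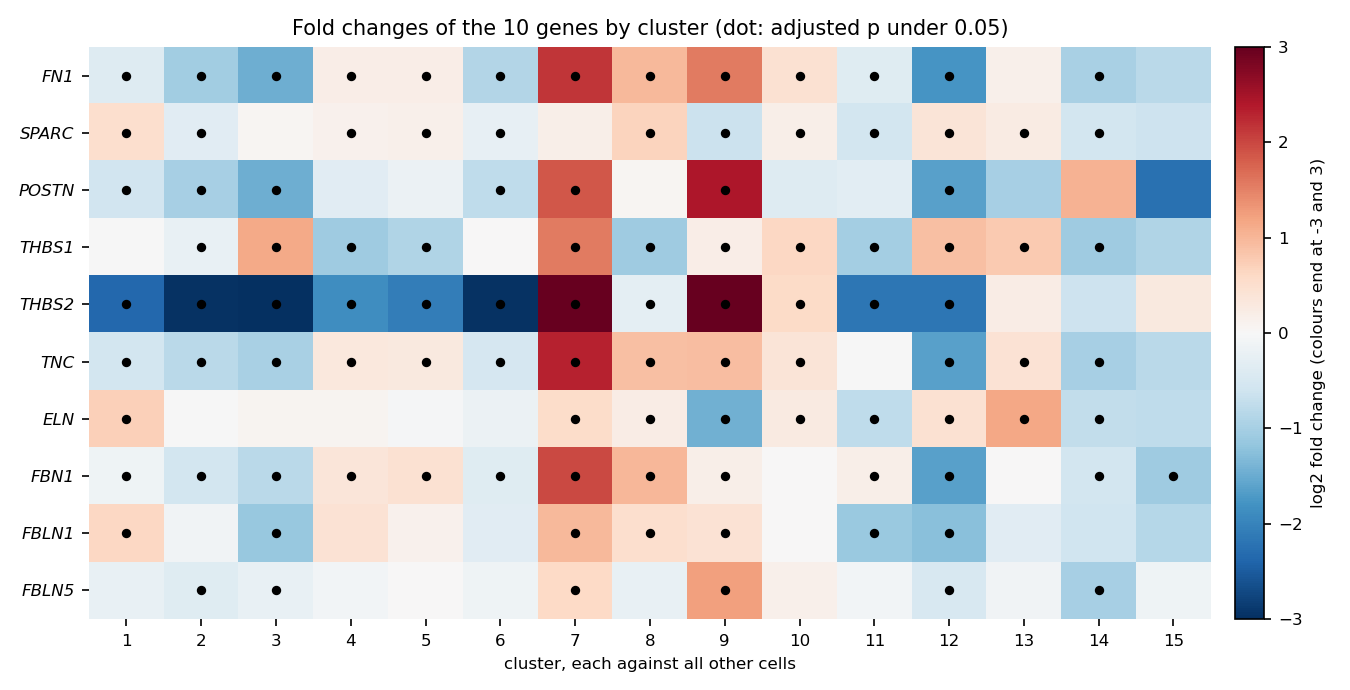
Log2 fold change of each gene (rows) in each cluster against all other cells (columns), red for higher and blue for lower, with a dot where the edgeR adjusted p is under 0.05. The column of cluster 7 is red for all 10 genes, the columns of clusters 3 and 12 are blue for FN1, POSTN, THBS2, TNC and FBN1 and red for THBS1, and ELN and SPARC are blue in cluster 9.

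Cluster 9 was compared with the 7 myogenic clusters pooled, that is the deep one of the clusters the study names fibro-adipogenic with those it names satellite cells, myoblasts and myocytes. Of this pool, clusters 4, 5 and 8 were lower in myoblast markers than the rest. THBS2 was at 0.0239 and 0.0235 UMIs per 10000 in the myogenic clusters, against 0.654 and 0.691 in cluster 9, so that both libraries of cluster 9 lay far above. Its log2 fold change was 4.8 ± 0.06 (SE), or 27.9-fold (edgeR, adjusted p = 3.26e-06). POSTN, at 0.115 and 0.124 in the myogenic clusters, was 5.93-fold higher in cluster 9 (log2 2.57 ± 0.13, edgeR adjusted p = 5.65e-05). FN1, at 2.07 and 2.09, was 3.09-fold higher (log2 1.63 ± 0.04, edgeR adjusted p = 8.65e-06). These 3 genes were higher in cluster 9 in both libraries with no overlap.

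FBLN5 was at 0.532 and 0.488 in the myogenic clusters and 2.45-fold higher in cluster 9 (log2 1.29 ± 0.06, edgeR adjusted p = 4.92e-05). TNC was at 3.11 and 3.02 and 2.07-fold higher (log2 1.05 ± 0.04, edgeR adjusted p = 2.76e-05). THBS1 and FBN1 were called higher by only 0.25 ± 0.04 and 0.24 ± 0.04 on the log2 scale against the pool. Clusters 8, 5 and 4 had more FBN1 (means of 7.95, 5.66 and 5.46) than cluster 9 (5.0), and clusters 3 and 12 had more THBS1 (9.25 and 8.29) than cluster 9 (5.97). THBS1 lost its call against the pool when cells called doublets were left out (log2 0.16, edgeR adjusted p = 0.0632), and FBN1 did not (0.27, adjusted p = 0.0019). Cells called doublets made up 13.8% of cluster 9, and their part in these values was not tested beyond leaving them out.

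ELN went the other way, at 0.495 and 0.532 in the myogenic clusters against 0.168 and 0.205 in cluster 9, 2.80-fold lower (log2 -1.49 ± 0.09, edgeR adjusted p = 0.000121). SPARC, at 39 and 39.2, was 1.62-fold lower in cluster 9 (log2 -0.70 ± 0.04, edgeR adjusted p = 7.9e-05). FBLN1 was not called (log2 0.39 ± 0.14, edgeR adjusted p = 0.0628), but was with the library as a block (adjusted p = 0.00562) and without doublets (adjusted p = 0.0435). In all, 7 of the 10 genes were called higher, beside 28.9% of the 12941 genes tested, and 2 lower, beside 27.6%. The median log2 fold change of the 10 genes was 0.72, and that of all genes tested -0.01.

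**Figure D3:**
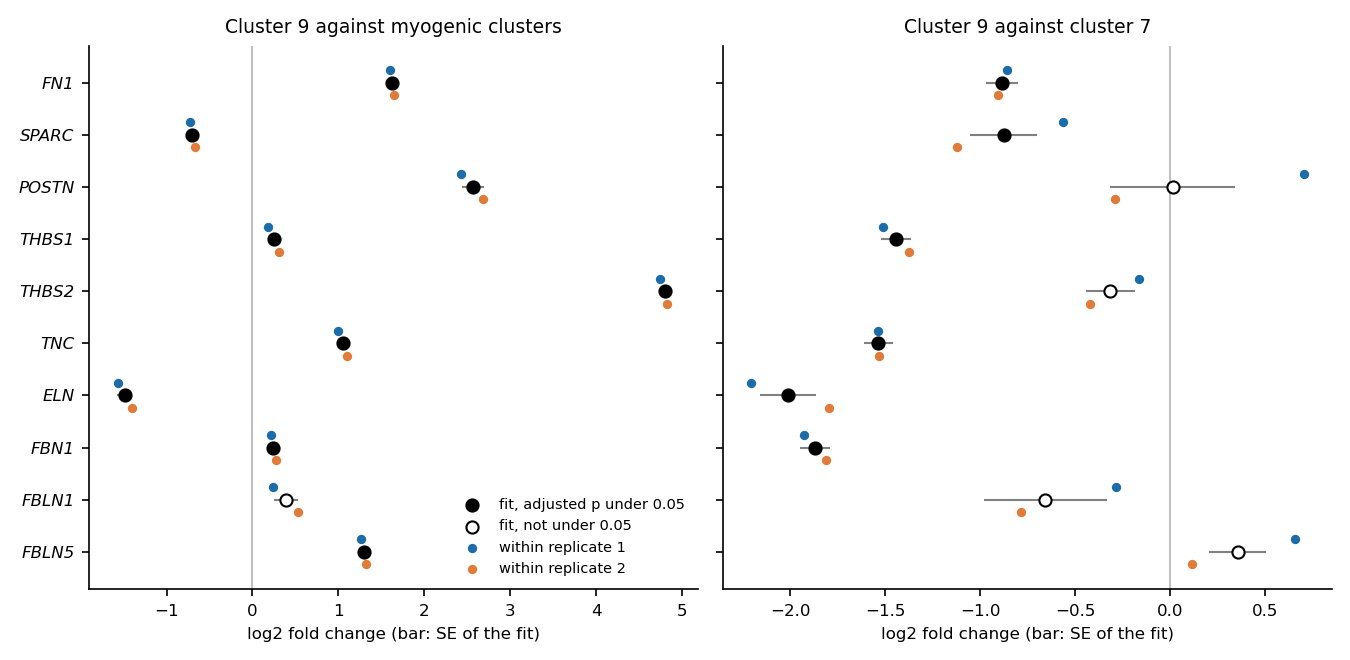
Log2 fold change of each gene in cluster 9 against the 7 myogenic clusters pooled (left) and against cluster 7 (right), with the fit and its SE in black (open where the edgeR adjusted p is not under 0.05) and the log2 ratio within each library in colour. On the left THBS2, POSTN, FN1, FBLN5 and TNC lie right of 0 and ELN and SPARC left, with both libraries on 1 side; on the right the 6 called genes, THBS2 and FBLN1 lie left of 0, and the libraries of POSTN fall on both sides.

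Partners of the 10 genes were taken as lists of elastic fibre partners, matricellular relatives, and receptors and crosslinkers. Of 14 elastic fibre partners tested in cluster 9 against the myogenic clusters, 5 were called higher and 5 lower, with a median log2 of 0.06. MFAP5, a glycoprotein of microfibrils, had 456 UMIs in cluster 9 and 111 in the myogenic clusters (log2 4.93 ± 0.16), and FBN2, the second fibrillin, was also higher (3.23 ± 0.08), as was EMILIN1 (1.93 ± 0.20). EMILIN2 (-1.91 ± 0.09), MFAP4 (-1.66 ± 0.07) and ADAMTS10 (-0.87 ± 0.08) were lower. Over all genes tested, 28.9% were called higher and 27.6% lower, so the list as a whole was near that background.

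Of 16 matricellular relatives tested there, 5 were called higher and 6 lower, with a median log2 of -0.04, again beside 28.9% and 27.6% of all genes. The highest were TNXB, on 15 UMIs in cluster 9 and 6 in the myogenic clusters, WISP2 (3.75 ± 0.32) and NOV (3.49 ± 0.14). SPARCL1, the closest relative of SPARC, was lower (-2.62 ± 0.12), as were FBLN7 (-2.29 ± 0.16) and THBS3 (-2.23 ± 0.07). THBS3 was thus called in the opposite direction to THBS2. Of 18 receptors and crosslinkers, 8 were called higher and 5 lower, with a median log2 of 0.01, beside the same shares. ITGA5, the alpha subunit of the main fibronectin receptor, was at 4.64 in cluster 9 and 0.491 in the myogenic clusters (3.22 ± 0.05). The crosslinking enzyme TGM2 (4.33 ± 0.33), on 67 and 24 UMIs, and ITGA9 (2.97 ± 0.31), a receptor subunit for tenascin-C, on 51 and 48 UMIs, were also higher. SDC4, a fibronectin co-receptor (-1.28 ± 0.09), and ITGB5 (-0.49 ± 0.09) were lower, and ITGB6 had 0 of 26381840 UMIs in cluster 9, which allows up to 0.00114 UMIs per 10000, and 59 UMIs in the myogenic clusters.

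UMIs of THBS2 were spread over more cells of cluster 9 than those of POSTN. As counted, 68.9% of its 1080 cells had a THBS2 UMI and 54.1% a POSTN UMI, at a median of 23011 UMIs per cell. In cluster 3, at a median of 16482 UMIs, the shares were 1.62% and 9.88%; free RNA in the droplets was not estimated, and these shares are what cells low in both genes showed. After thinning each cell to 1000 UMIs, the THBS2 share was 6.85% (exact binomial 95% interval 5.42 to 8.53, counting error only) in cluster 9 and 9.42% (7.69 to 11.4) in cluster 7, where 290 shallower cells were left out. Of the other clusters, cluster 10 had the highest thinned share, 1.19%, and cluster 3, with 0.0983% of 2034 cells, the lowest of those with a THBS2 UMI. For POSTN the thinned share was 6.67% (5.25 to 8.32) in cluster 9, 6.94% (5.45 to 8.69) in cluster 7 and 2.91% or less elsewhere.

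The 20 cells with the most UMIs of a gene held 26.8% of the POSTN UMIs of cluster 9, 12.6% for THBS1, 10.6% for THBS2 and 8.94% for FN1. Single cells reached 40 and 60 POSTN UMIs in replicates 1 and 2. With each cell at 5000 UMIs, POSTN and THBS2 had nearly the same mean in cluster 9, 0.372 and 0.378 UMIs per cell, and their Fano factors (variance over mean of the UMIs, near 1 for counts that scatter at random) were 3.13 and 1.2. The Fano factor of POSTN was 2.26 and 3.87 in the libraries and that of THBS2 1.34 and 1.06, with no overlap. At a like mean, POSTN thus varied more between cells of cluster 9 than THBS2.

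Against cluster 7, no gene was called higher in cluster 9, beside 29.9% of the 10785 genes tested, and 6 were called lower, beside 26.6%. At an unadjusted p under 0.05 none of the 10 was higher either, and DESeq2 called none higher; without the filter on low counts FBLN5 was called higher (log2 0.48, adjusted p = 0.00314). ELN was 2.01 ± 0.15 lower on the log2 scale in cluster 9, FBN1 1.87 ± 0.08, TNC 1.54 ± 0.08, THBS1 1.45 ± 0.08, FN1 0.89 ± 0.08 and SPARC 0.88 ± 0.18. THBS2 was not called (-0.32 ± 0.13, edgeR adjusted p = 0.0708), nor POSTN (0.01 ± 0.33), whose ratio was 0.71 within replicate 1 and -0.29 within replicate 2. FBLN5 (0.35 ± 0.15) and FBLN1 (-0.66 ± 0.32) were not called either. With library size in place of TMM scaling, 8 were called lower and the median of all genes moved from 0.05 to -0.46, and the split of all calls from 3229 higher and 2864 lower to 1904 and 4587. When ribosomal protein genes were taken out of the totals, cluster 7 had 1.46 times the THBS2 level of cluster 9, 2.18 times that of FN1, 4.32 times that of FBN1, and 0.917 times that of FBLN5.

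Cluster 7 was not uniform in these genes. Its cells were divided, after its markers had been seen, by whether they held a UMI of MYF5, MYOD1, DES or MYOG, which 343 and 390 cells did and 281 and 284 did not, at medians of 1495 and 1275 UMIs. FN1 was at 24.1 and 27.0 UMIs per 10000 in the cells without a marker UMI and at 11.8 and 11.8 in those with one. TNC was at 36.2 and 36.3 without and 20.3 and 20.7 with, FBN1 at 35.8 and 31.8 against 21.7 and 20.5, and THBS2 at 1.83 and 1.89 against 0.559 and 0.930. THBS1 was the reverse, at 16.3 and 15.7 without and 29.6 and 25.8 with a marker UMI. PDGFRA was higher without, at 2.03 and 2.68 against 0.689 and 1.18, and for these 6 genes no library value of one set lay within the other. FBLN5 (1.64 and 2.13 without, 0.894 and 1.28 with) and FBLN1 (0.25 and 0.307, against 0.0745 and 0.236) were likewise higher without, FBLN1 on 23 and 22 UMIs. ELN was at 1.14 and 0.658 without and 1.15 and 1.21 with, and the libraries of POSTN and SPARC overlapped. The cells with a marker UMI still had more FN1, TNC and FBN1 than any other cluster. In cluster 9, 439 and 366 cells held such a UMI and 147 and 128 did not, at medians of 24239 and 20435 UMIs. FN1 was there at 6.06 and 6.47 without and 6.41 and 6.79 with. At that depth most cells held a marker UMI, and cells were not thinned. The divisions of clusters 7 and 9 can therefore not be compared. The same division of clusters 10 and 13 also gave more FN1, TNC and FBN1 without a marker UMI, with libraries apart. FN1 was at 6.43 and 5.46 without and 3.52 and 3.78 with in cluster 10. In cluster 13 it was at 3.92 and 4.54 without and 2.73 and 2.68 with. THBS1 was lower without in cluster 13 (7.08 and 9.18, against 10.1 and 9.69), and its libraries overlapped in cluster 10. The pattern was thus not particular to cluster 7.

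**Figure D4:**
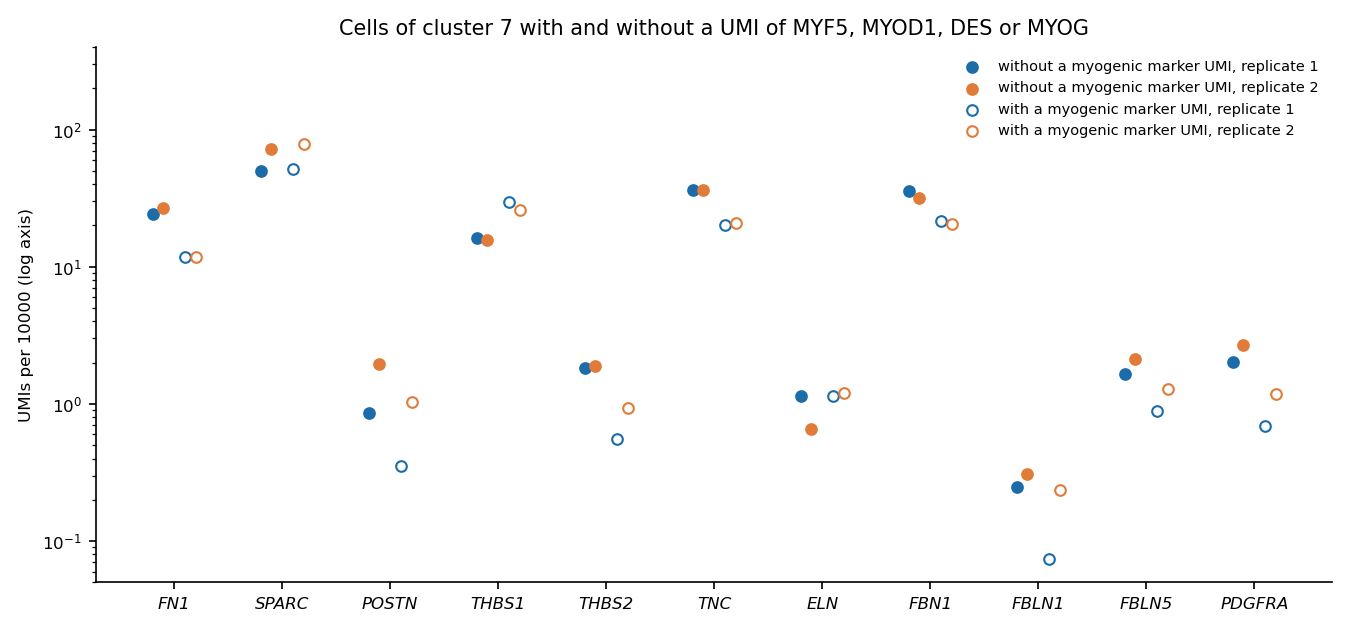
Level in UMIs per 10000 (log axis) of the 10 genes and PDGFRA in the cells of cluster 7 without (filled) and with (open) a UMI of MYF5, MYOD1, DES or MYOG, 1 point per library. FN1, TNC, FBN1, THBS2, FBLN1, FBLN5 and PDGFRA are higher in the cells without such a UMI and THBS1 is higher in the cells with one, while the SPARC points differ more between libraries than between the sets.

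One of the paths that the study drew through the myogenic cells runs from cluster 8 through clusters 1 and 3 to cluster 12. FN1 had means of 4.63, 1.93, 0.929 and 0.692 UMIs per 10000 along it, FBN1 of 7.95, 3.83, 2.43 and 1.29, and TNC of 6.19, 2.42, 1.78 and 1.06. All 3 stepped down at each cluster with no overlap of libraries, 6.69-fold, 6.16-fold and 5.84-fold in all. Over the same clusters the sum of the fibroblast markers was 244, 146, 79.9 and 65.0 and that of the fibro-adipogenic markers 21.0, 9.46, 4.89 and 3.36, and their part in the steps was not tested. THBS1 went the other way, from 2.47 through 4.86 to 9.25 in cluster 3, and was at 8.29 in cluster 12. FBLN5 was at 0.503, 0.495 and 0.484 in the first 3 clusters, whose libraries overlapped, and at 0.387 in the last.

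In cluster 3 against cluster 1, 8 genes were called lower beside 19.1% of the 11362 genes tested, and THBS1 alone higher beside 21.1%. FBLN1 was lower by most (log2 -1.59 ± 0.16, edgeR adjusted p = 0.000375), followed by FN1 (-1.02 ± 0.05), THBS2 (-0.98 ± 0.29), POSTN (-0.84 ± 0.18), FBN1 (-0.62 ± 0.04), ELN (-0.55 ± 0.08), TNC (-0.41 ± 0.04) and SPARC (-0.39 ± 0.04). THBS1 was 0.97 ± 0.06 higher (edgeR adjusted p = 5.52e-05), and FBLN5 was not called (0.00 ± 0.08). The THBS2 value rests on 34 UMIs in cluster 3 and 66 in cluster 1, and its call was lost with DESeq2 (adjusted p = 0.234), with assignment by likelihood (0.327) and without doublets (0.0545). Of the partners, 10 of 12 elastic fibre genes, 7 of 13 matricellular relatives and 10 of 12 receptors and crosslinkers were called lower, where 19.1% of all genes were, with medians of -0.53, -0.44 and -0.68 beside 0 for all genes.

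In cluster 12 against cluster 3, as many of the genes were called lower as higher. FBN1 (-0.82 ± 0.05, edgeR adjusted p = 2.1e-05), TNC (-0.65 ± 0.06) and FN1 (-0.33 ± 0.06) were lower, beside 15.6% of the 10811 genes tested. THBS2 (1.1 ± 0.35), ELN (0.40 ± 0.11) and SPARC (0.35 ± 0.05) were higher, beside 18.2%. THBS2 had 24 UMIs in cluster 12 and was called in only 3 of 8 settings, with a log2 fold change of 0.09 when doublets were left out, so no difference in THBS2 could be held to at this depth. ELN lost its call with library size in place of TMM (log2 0.30, adjusted p = 0.0551), where 1 gene was called higher and 5 lower, and all calls went from 1963 higher and 1687 lower to 1552 and 2527. FBLN5 (-0.23 ± 0.09, edgeR adjusted p = 0.0878) was called with the library as a block (-0.22, adjusted p = 0.0183).

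Among the partners in cluster 12 against cluster 3, none of 11 elastic fibre genes was called higher, where 18.2% of all genes were, and 3 were called lower, where 15.6% were, namely LTBP2 (-0.85 ± 0.20), LTBP3 (-0.51 ± 0.12) and EMILIN2 (-0.28 ± 0.09). Of 13 matricellular relatives, 4 were called higher, with SPARCL1 (2.20 ± 0.10), NOV (1.69 ± 0.50, on 14 and 13 UMIs) and THBS3 (0.57 ± 0.07) first, and 5 lower, with WISP1 (-1.09 ± 0.16), FSTL1 (-0.90 ± 0.06) and SMOC1 (-0.60 ± 0.11) first. ITGB6, which partners ITGAV, was higher on 23 and 19 UMIs (1.86 ± 0.41), and ITGAV (-0.78 ± 0.20), the elastin crosslinker LOX (-0.45 ± 0.08) and ITGB1 (-0.20 ± 0.06) were lower. SPARC and SPARCL1 were therefore both higher in cluster 12 than in cluster 3, whereas in cluster 9 both were lower than in the myogenic clusters.

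**Figure D5:**
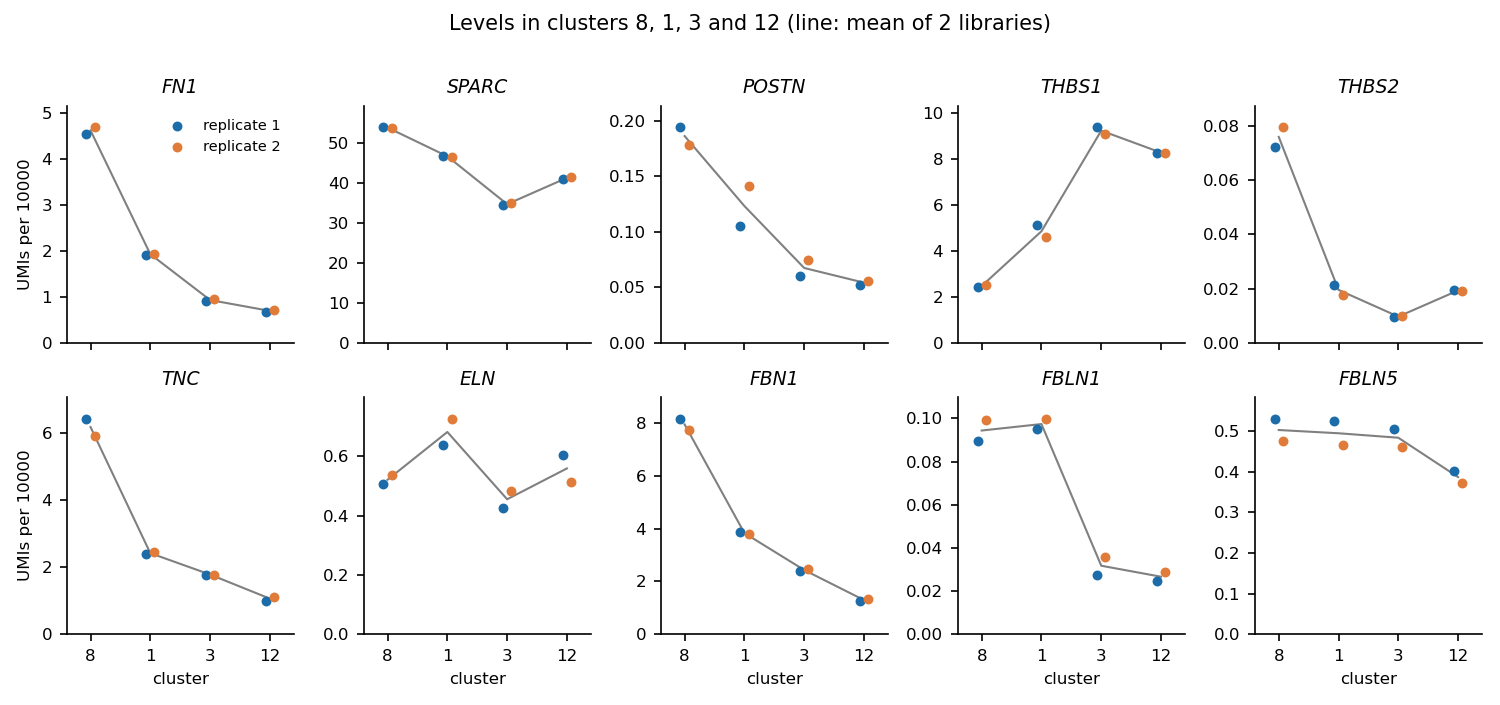
Level of each gene in UMIs per 10000, on an axis from 0, in clusters 8, 1, 3 and 12, with 1 point per library and a line through the means. FN1, FBN1 and TNC step down from 4.63, 7.95 and 6.19 in cluster 8 to 0.692, 1.29 and 1.06 in cluster 12, THBS1 is highest in cluster 3 at 9.25, and SPARC and ELN are lower in cluster 3 than in cluster 12.

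Cells of clusters 1, 2, 3 and 6 were also divided by whether they held a MYOG UMI. After thinning to 5000 UMIs, a division made after the data had been seen, THBS1 was higher in cells with a MYOG UMI in cluster 2 (4.77 and 4.92, against 3.98 and 3.91) and cluster 6 (5.33 and 5.36, against 4.49 and 4.88). In cluster 1 the libraries overlapped, at 5.0 and 4.50 with and 4.59 and 4.26 without. Cluster 3 was the reverse, with THBS1 at 8.59 and 8.20 with and 9.90 and 10.3 without. FN1 was lower with a MYOG UMI in cluster 1 (1.62 and 1.82, against 1.94 and 1.97) and cluster 2 (1.19 and 0.969, against 1.42 and 1.35). In clusters 3 and 6 the libraries of FN1 overlapped, at means of 0.844 with and 0.901 without, and 1.56 with and 1.37 without. The direction for THBS1 thus differed between clusters, and that difference was not tested.

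Across the 15 clusters, which share 2 libraries and differ in depth, the log2 levels of the genes were compared as patterns, given here without a test. FN1 and TNC had a Pearson r of 0.98, TNC and FBN1 of 0.96 and FN1 and FBN1 of 0.93, SPARC and ELN had 0.88, and POSTN and ELN had -0.08. Of 2703 other genes with 1 UMI per 10000 or more in some cluster, ITGB1, the beta subunit shared by many matrix receptors, was nearest to both FN1 (r = 0.975) and TNC (0.978). SERPINH1, the collagen chaperone, was nearest to FBN1 (0.991), with TAPBP and P3H3 next. SFRP2, CD248 and INHBA were nearest to THBS2 (0.978, 0.975 and 0.959).

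NUCB1, SDF4 and COL11A1 were nearest to SPARC (0.940 to 0.917), and TBC1D4, ITM2C and COL11A1 to ELN (0.911 to 0.893). For THBS1 they were ERBIN, PXN and MAP1A (0.921 to 0.905), for POSTN NPTN, DERL1 and VCAN (0.9 to 0.860), for FBLN1 ADAM9, MMP2 and SERPINH1 (0.913 to 0.882) and for FBLN5 ADM, DPYSL3 and PGRMC2 (0.916 to 0.910). MFGE8 and LGR4 followed ITGB1 for FN1, and P4HB and SLC39A7 for TNC. All of these genes but SDF4, SFRP2, INHBA and DPYSL3 had their highest level in cluster 7. The genes they were matched to, except ELN, had their highest mean there too, which favours such matches. The low ribosomal share of cluster 7 also gives other genes more weight in its levels. How many of all compared genes peaked in cluster 7 was not counted, so nothing is concluded from this peak.

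Cell by cell the relations were weak. Over 15996 cells at 5000 UMIs the Spearman correlation was 0.26 between FN1 and TNC, 0.22 between FN1 and FBN1 and 0.22 between TNC and FBN1, and -0.13 between THBS1 and FBN1. Within the 1080 cells of cluster 9, SPARC and TNC had 0.32 (0.28 and 0.37 in replicates 1 and 2), FN1 and SPARC 0.27 and FN1 and TNC 0.26. These were the highest pairs there, with FN1 and FBN1 at 0.10 and TNC and FBN1 at 0.13. In the 2461 cells of cluster 1, FN1 and TNC had 0.13, FN1 and FBN1 0.07, TNC and FBN1 0.06 and SPARC and TNC 0.06. For FBN1 with FN1 and with TNC, the values within both clusters were thus lower than over all cells. These values are descriptions, as cells share their library and most counts per cell are small. Cells under 5000 UMIs were left out. Among them were most cells of clusters 7, 13, 14 and 15, whose medians were 1389, 1631, 2513.5 and 647 UMIs. The values over cells and the patterns over clusters therefore do not rest on the same cells.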

How the data were processed

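Single cells of 2 libraries were profiled with the 10x Genomics 3′ assay. The deposited matrix held raw UMI counts per gene and cell, made by the authors with Cell Ranger 3.0.2 on the bovine genome ARS-UCD1.2, with reads thinned to equal mapped reads per cell in both libraries, so depths were levelled before counting, and the library of a cell was read from its barcode suffix. A second table gave, per the file headers, the authors' average count of each gene in each of 15 clusters, in units of its own, and log2 fold changes and p-values of their comparisons, and the latter were not used. Clusters of single cells were deduced from the averages: each was turned into a whole-number sum (largest distance from a whole number 0.000107) and cells were placed until all 252240 sums of gene and cluster were met exactly, in 30 rounds, with 0 that differed.

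Counts were summed per cluster and library, and a level is UMIs per 10000 UMIs. Sums were tested with edgeR 4.0.16 in R 4.3.3 (TMM scaling, filterByExpr, quasi-likelihood test, Benjamini-Hochberg adjustment over all genes tested, threshold 0.05), each fit holding only the 2 sides compared. The myogenic side pooled clusters 1, 2, 3, 4, 5, 8 and 12. Libraries pair the sums, since both sides of a comparison come from the same library; deviations of sums from the same library correlated at 0.167 to 0.669 (median 0.557, 19 comparisons, genes with 20 UMIs or more in each sum). The fit had no library block, and the block was an alternative. The others were DESeq2 1.42.0, library size without TMM, no filter, other clusters weighted equally, cells assigned by multinomial likelihood, cells under 2000 UMIs or doublets left out, and leaving out a library. Scrublet (scanpy 1.11.5, expected rate 8.0%, score over 0.25) marked 1425 cells (7.46%) as doublets, which were kept. The cut of 0.25 was fixed, and lay below the automatic thresholds of 0.743 in replicate 1 and 0.272 in replicate 2. All values without doublets rest on this cut. Levels without ribosomal protein genes and the divisions by marker UMIs were added after the data had been seen. The fit was tested on simulated data for cluster 9 against the myogenic clusters, where 89.5% of 200 genes changed 3-fold among 12941 were recovered and 25 unchanged genes were called. Those 25 were a larger share of the calls than the threshold of 0.05 aims at. The changed genes had a mean over 20 UMIs, so recovery at lower counts was not measured. Sums were simulated without the correlation between sums of the same library.

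The genes and lists were chosen with earlier results of these data known. Named were all 10 genes, for each the 3 genes with the highest Pearson r of log2(level + 0.01) over clusters among genes reaching 1 UMI per 10000, and per partner list the 3 highest and 3 lowest genes called in cluster 9 against the myogenic clusters and cluster 12 against cluster 3. Intervals are exact binomial at 95% and, like the limit of 3 counts, cover counting error only. No sequence or coordinate is given. Numpy 2.4.6, scipy 1.17.1, pandas 2.3.3 and matplotlib 3.10.9 were used.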

Additional observations from a re-analysis of the deposited data

How the results depend on the processing

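Each of the 190 fits of a gene in a comparison was repeated under every alternative that could be run. None reversed with DESeq2 (6 lost and 3 gained a call), without doublets (7 and 2), without TMM (5 and 9), without the filter (9 and 2) or with the library as a replicate block (0 and 18). Beyond the changes given beside the results, the block moved no call of the 10 genes from called to not called. Weighting the other clusters equally turned the sign of 13 of 150 values that were called in at least one of both fits (sign changes of values called in neither are not counted): FN1 in clusters 4 (-0.23) and 5 (-0.22), TNC in clusters 4 (-0.18), 5 (-0.19), 10 (-0.08) and 13 (-0.01), THBS1 in clusters 6 (-0.27) and 9 (-0.09), THBS2 in cluster 10 (-0.23), and FBN1 in clusters 9 (-0.17), 10 (-0.30), 11 (-0.19) and 13 (-0.31). It took the pairs called higher from 49 to 30. Among all genes tested, higher calls also became fewer in most clusters, such as cluster 9 (3343 to 2891). They became more in clusters 6 (1387 to 1537), 14 (480 to 863) and 15 (5 to 10). ELN in cluster 7 became -0.004 without cells under 2000 UMIs, and THBS2 in cluster 8 became 0.02 with cells assigned by likelihood, which placed 86.3% of cells in the same cluster. The cause of these changes was not tested.

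Without the filter, 1 gene instead of 0 was called higher in cluster 9 against cluster 7. Without TMM, 1 instead of 3 was called higher and 5 instead of 3 lower in cluster 12 against cluster 3. DESeq2 called 2268 genes instead of 3650 there and 2865 instead of 4562 in cluster 3 against cluster 1. Against all other cells, the block raised the genes called from 4148 to 6547 in cluster 4, 3168 to 5159 in cluster 5, 2626 to 5291 in cluster 6, 1004 to 1526 in cluster 14 and 35 to 242 in cluster 15. DESeq2 called 1532 and 262 in clusters 14 and 15, equal weights 1693 and 128, and cluster 15 had 0 without TMM or without doublets. Leaving out cells under 2000 UMIs lowered the calls of cluster 7 from 5825 to 3700 and of cluster 13 from 2218 to 1010, and left no cell of cluster 15. Leaving out a library leaves 1 sum against 1, a value with no test: 5 values moved without replicate 1, 9 without replicate 2, and no called value reversed. A value counted as moved only if it left the fit by more than the SD of both library values, which few could do by design. Sign changes of values not called were not counted, such as POSTN in cluster 9 against cluster 7, whose libraries had opposite signs. Few UMIs limit THBS2 outside clusters 7 and 9 and FBLN1 in all clusters.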
